A study of Mus musculus with 19 samples.

Results

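Immediate early genes are the genes that neurons switch on first after synaptic or other stimulation, before any new protein has been made. The 10 described here were chosen by symbol as the activity-induced members Fos, Fosb, Fosl2, Jun, Junb, Jund, Egr1, Arc, Nr4a1 and Npas4, and all 10 were found among the 50559 genes of the count table, of which 25601 had a count in at least 1 immunoprecipitate. Ribosome-bound mRNA was measured in spinal cord cholinergic neurons of mice over a day. The animals were male 10-week-old C57BL/6J mice carrying ChAT-Cre and RiboTag fx/+, in which Cre recombinase switches on an HA-tagged ribosomal protein in cells that express choline acetyltransferase. By this design the tag does not separate motor neurons from other cholinergic neurons of the cord, and its presence in each kind was not measured here. They were kept in 12 h of light and 12 h of dark with no other treatment, and 3 spinal cords, 1 per library, were taken every 4 h at 6 zeitgeber times (ZT), from ZT0, which is lights-on, through ZT12, which is lights-off, to ZT20. These 18 immunoprecipitates were compared with 1 pooled input library of whole spinal cord homogenate, which has no replicate. Total counts ran from 6302140 to 22406850 in the immunoprecipitates and came to 15239783 in the input. Of 7 markers of the labelled cell type, cholinergic neurons, 6 averaged at least 2-fold above the input with all 18 immunoprecipitates above it. None of the defining markers (the first 2 listed for each of 8 cell types) was at 0 in any library. Of the further markers, 1 microglial (P2ry12) and 1 endothelial (Cdh5) were at 0 in a library.

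The proteins of these genes have separate roles. Fos, Fosb and Fosl2 pair with Jun, Junb or Jund to form AP-1, a transcription factor that binds DNA as a dimer. Egr1 is a zinc finger transcription factor, Nr4a1 an orphan nuclear receptor and Npas4 a basic helix-loop-helix factor that in neurons responds to calcium entry. Arc is the exception, a protein of the synapse that acts in the removal of AMPA receptors from the postsynaptic membrane. Calcium and growth factor signals reach the promoters of such genes through factors already present in the cell, among them CREB at cyclic AMP response elements (CRE) and serum response factor at CArG boxes.

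Promoter windows from RefSeq (build GRCm38.p6, 250 bases before to 50 after an annotated start of transcription) were matched for 8 of the 10 genes, all except Egr1 and Arc. The windows of the 5 genes that held the CRE core, TGACG or its reverse complement, are shown because this was the motif most of the matched genes shared. Capitals mark the CRE core on either strand, the EGR site (GCGGGGGCG or GCGTGGGCG on either strand, which Egr1 binds) and the TATA box (TATAAA on the strand of the gene), each printed 5′ to 3′ on the strand of its gene.
Fos, chr12:85473640-85473939, plus strand: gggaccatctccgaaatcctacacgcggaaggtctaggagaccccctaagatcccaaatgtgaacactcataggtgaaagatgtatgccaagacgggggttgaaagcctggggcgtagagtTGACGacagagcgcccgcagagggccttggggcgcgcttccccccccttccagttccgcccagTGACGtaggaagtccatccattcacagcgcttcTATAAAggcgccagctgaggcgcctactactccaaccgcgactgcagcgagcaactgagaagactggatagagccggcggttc
Fosb, chr7:19309996-19310295, minus strand: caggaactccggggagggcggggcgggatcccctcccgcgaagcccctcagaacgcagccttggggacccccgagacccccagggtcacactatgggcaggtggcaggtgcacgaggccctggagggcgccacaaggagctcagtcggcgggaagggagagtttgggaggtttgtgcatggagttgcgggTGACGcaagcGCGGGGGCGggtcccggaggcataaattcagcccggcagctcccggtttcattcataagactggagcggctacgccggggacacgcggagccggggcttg
Junb, chr8:84978699-84978998, minus strand: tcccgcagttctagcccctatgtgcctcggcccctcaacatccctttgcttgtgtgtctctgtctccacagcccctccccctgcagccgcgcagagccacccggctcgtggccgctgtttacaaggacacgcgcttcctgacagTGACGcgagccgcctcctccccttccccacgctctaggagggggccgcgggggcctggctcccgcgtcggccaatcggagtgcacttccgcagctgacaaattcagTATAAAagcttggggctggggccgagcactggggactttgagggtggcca
Nr4a1, chr15:101266596-101266895, plus strand: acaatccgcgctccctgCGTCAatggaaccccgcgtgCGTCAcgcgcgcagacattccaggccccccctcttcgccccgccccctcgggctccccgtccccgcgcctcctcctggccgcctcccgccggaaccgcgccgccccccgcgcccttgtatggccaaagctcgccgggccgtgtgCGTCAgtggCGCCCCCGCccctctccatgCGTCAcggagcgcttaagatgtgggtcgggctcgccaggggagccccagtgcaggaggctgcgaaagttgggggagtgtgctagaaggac
Npas4, chr19:4989922-4990221, minus strand: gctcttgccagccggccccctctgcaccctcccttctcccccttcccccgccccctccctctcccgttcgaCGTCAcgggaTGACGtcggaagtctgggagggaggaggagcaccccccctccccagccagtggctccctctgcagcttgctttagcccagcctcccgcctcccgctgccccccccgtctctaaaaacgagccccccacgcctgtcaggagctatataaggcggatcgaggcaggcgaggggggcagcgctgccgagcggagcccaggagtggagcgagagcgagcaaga

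The CRE core was present in 5 of 8 windows, against 20.8% of the 32851 RefSeq windows of the same length, with 4 matches in Nr4a1 and 2 each in Fos and Npas4. An EGR site was found in 3 of 8 (Fosb, Fosl2 and Nr4a1) against 3.47% of all windows, and a TATA box in 2 of 8 (Fos and Junb) against 8.32%. In Fos the TATA box began 33 bases before the start, whereas in Junb it began at the start base itself. The start of Junb in the GENCODE M21 annotation lies 30 bases further downstream. None of the 8 windows held the full palindromic CRE TGACGTCA (1.79% of all windows, and a sequence that contains the core), an AP-1 site TGACTCA or TGAGTCA (5.2%), an E-box CACGTG (7.15%) or a CArG box (1.63%), all searched on both strands. These matches describe the letters of the windows and were not tested for binding, and sequence outside the windows was not searched. The most upstream GENCODE M21 start lay outside the windows of Jund, Nr4a1, Npas4 and Fosl2. The printed windows of Nr4a1 and Npas4 lie within the RefSeq spans of these genes, at an internal annotated start, and their motif counts describe those windows only. Whether other GENCODE transcripts start there was not checked.

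Levels spanned more than 2 orders of magnitude, and the Jun family led. On a per-length scale, in CPM (counts scaled to library size) per kilobase of exon, Jund stood at 129 ± 25.7 (SD, n = 18 immunoprecipitates), followed by Jun at 45.9 ± 7.67, Junb at 12.1 ± 2.23 and Fos at 10.1 ± 3.01. Egr1 followed at 2.75 ± 0.708, Arc at 2.15 ± 0.681, Nr4a1 at 1.49 ± 0.646, Fosl2 at 1.21 ± 0.307, Fosb at 0.514 ± 0.195 and Npas4 at 0.234 ± 0.115. The mean ± SD intervals of neighbours overlapped for Junb and Fos, for Egr1 and Arc, for Arc and Nr4a1, for Nr4a1 and Fosl2 and for Fosb and Npas4. These intervals give the spread over libraries, and the order of the genes was not tested. Levels per length are approximate where annotations differ: per kilobase of its whole RefSeq span (2878 bases, against the 1668 used), Jund would stand at 74.8, still the highest. Npas4 rested on 1 to 37 counts per library and Fosb on 5 to 113, while Jund had 1198 to 5557 and Jun 972 to 3068.

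Against the input, 2 of the 10 genes were called higher in the immunoprecipitates, 3 lower and the rest neither. Jun and Junb were at least 2-fold higher than the input with all 18 immunoprecipitates above it, as were 12.4% of the 19831 genes compared, and Egr1, Arc and Npas4 were at least 2-fold lower with all 18 below it, as were 22.3% of genes. Jun averaged 148 ± 24.7 CPM (SD, n = 18; range 98.1 to 201) against 45.6 CPM in the input (exact Poisson 95% interval 42.6 to 48.7, counting error only), 3.25-fold higher. Junb averaged 28.2 ± 5.16 CPM (range 19.3 to 41.1) against 12.1 CPM in the input (10.6 to 13.8), 2.33-fold higher. Scaled by library totals instead, Junb was no longer called, at a log2 ratio of 0.89. The third Jun gene, Jund, was 1.5-fold higher, at 218 ± 43.0 CPM against 145 CPM (140 to 151), again with 18 of 18 above.

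**Figure D1:**
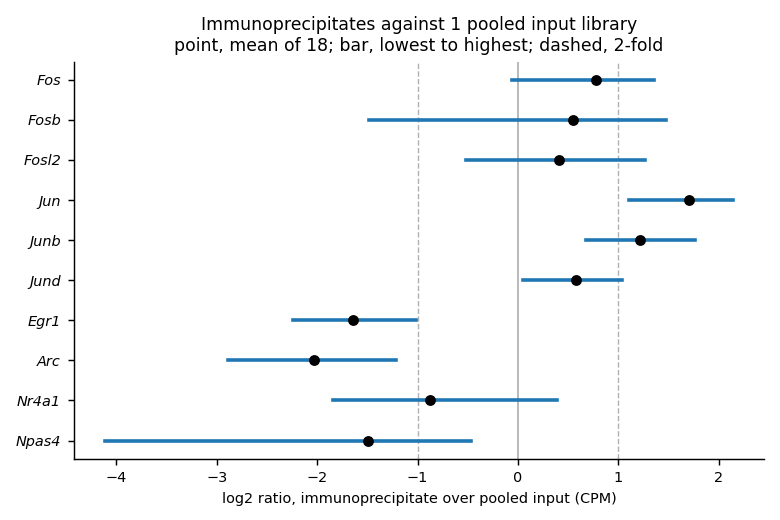
Log2 ratio of the 18 immunoprecipitates to the pooled input library for each gene (x axis) against the gene (y axis), with the mean as a point, the lowest to highest immunoprecipitate as a bar and 2-fold as dashed lines. Jun and Junb lie to the right of the 2-fold line on average, and Egr1, Arc and Npas4 to the left of it.

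Arc lay furthest below, at 6.64 ± 2.12 CPM (SD, n = 18; range 3.65 to 11.7) against 27.1 CPM in the input (24.8 to 29.6), 4.09-fold lower. Egr1 averaged 12.5 ± 3.19 CPM (range 8.2 to 19.3) against 38.9 CPM (36.2 to 41.8), 3.12-fold lower. Npas4 averaged 0.978 ± 0.481 CPM against 2.75 CPM (2.05 to 3.61), 2.81-fold lower and from 52 input counts. Nr4a1 was 1.84-fold lower with 17 of 18 immunoprecipitates below the input, and without replicate 2 of ZT8 it too met the rule. The Fos family sat closer to the input, with Fos 1.71-fold, Fosb 1.46-fold and Fosl2 1.33-fold higher on average and 17, 14 and 17 of 18 immunoprecipitates above it. The median log2 ratio was 0.48 over the 10 genes and −0.21 over all genes compared. With 1 input library these ratios carry no test. In such bulk samples fewer cells of a type, less RNA per cell and less of it bound to ribosomes cannot be told apart. Markers of other cell types remained in the immunoprecipitates beside these values. The 7 oligodendrocyte markers summed to between 1516 and 2887 CPM in the 18 libraries. By the same 2-fold rule 7 of 7 were below the input, as were 6 of 6 astrocyte and 6 of 6 microglial markers. Of other neurons, 3 of 3 excitatory and 3 of 4 inhibitory markers were below it. The 4 inhibitory markers summed to between 246 and 341 CPM, and Gad1 stood near the input (log2 ratio −0.1). The part of these cell types in the levels of Egr1, Arc and Npas4 was not tested.

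Spread between animals of the same time point was large for several of these genes. Fos had a within-time-point SD of 0.39 on the log2 scale, where the median was 0.2 over 2150 genes of like level and 97.4% of those had a lower SD. Jun, Junb, Jund and Fosl2 also lay above most genes of like level, with 83.7%, 87.2%, 81.0% and 86.5% of those lower. Egr1 and Arc did not, at an SD of 0.21 and 0.3 with 23.9% and 34.7% lower. At ZT8, for example, Fos read 31.5, 34.4 and 13.5 CPM in the 3 animals, a range wider than that of its time point means, which ran from 16.8 CPM at ZT4 to 30.4 CPM at ZT16.

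**Figure D2:**
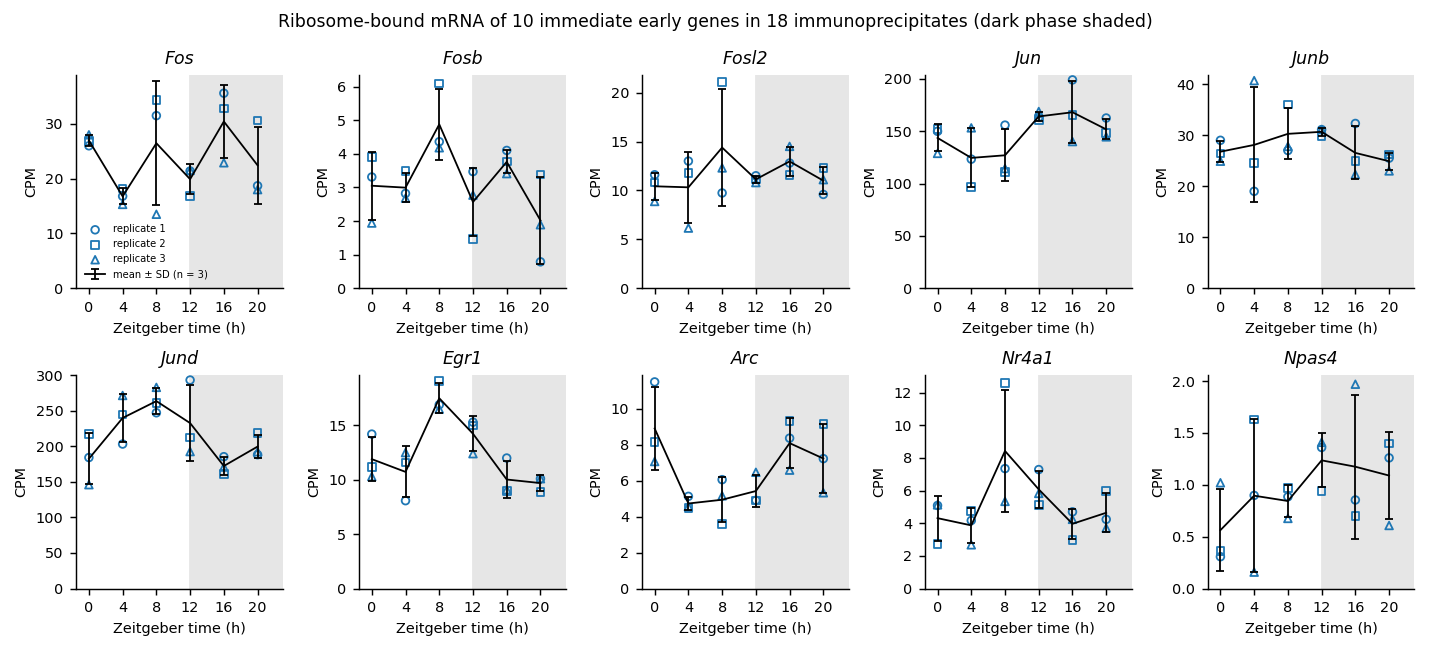
CPM of each of the 10 genes (y axes, linear from 0) against zeitgeber time in h (x axes), with each library as an open symbol by replicate number and the mean ± SD of the 3 animals in black. Jund and Egr1 are highest on average at ZT8, Arc is lowest at ZT4 and ZT8, and the Fos symbols at ZT8 spread from 13.5 to 34.4 CPM.

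Whether the genes differed between the phases was asked first with the mid-dark time points (ZT16 and ZT20) against the mid-light ones (ZT4 and ZT8), 6 libraries each. Jun and Arc were higher in mid-dark, and Jund and Egr1 were lower. These 4 of 10 calls (edgeR quasi-likelihood test, Benjamini-Hochberg adjusted p under 0.05) stand beside 18.2% of all 15572 genes tested, 9.59% higher and 8.65% lower. In no gene were the 2 sets of 6 libraries fully apart, which held for 3.27% of all genes. The median log2 change was −0.11 over the 10 genes and 0 over all genes, with 4 of the 10 positive and 6 negative.

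Jund, whose product is the AP-1 subunit that is expressed in resting cells, was the most abundant and showed a daytime excess. Its libraries read 184, 217 and 146 CPM at ZT0, 203, 245 and 272 CPM at ZT4, 247, 261 and 283 CPM at ZT8, 293, 212 and 193 CPM at ZT12, 186, 161 and 171 CPM at ZT16, and 188, 218 and 193 CPM at ZT20. Of the 6 mid-dark libraries, 5 lay below every mid-light library, and replicate 2 of ZT20 was the exception. The change was −0.44 (log2, SE 0.11, adjusted p = 0.0104), which is 1.35-fold lower in mid-dark. Jund lies at chr8:70697739-70700616 (GRCm38.p6) and has 1 exon in GENCODE M21.

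Egr1, at chr18:34861207-34864956, was highest at ZT8. The libraries read 14.2, 11.2 and 10.3 CPM at ZT0, 8.08, 11.6 and 12.5 CPM at ZT4, 16.9, 19.1 and 16.5 CPM at ZT8, 15.3, 15.0 and 12.4 CPM at ZT12, 12.0, 8.99 and 9.09 CPM at ZT16, and 10.1, 8.89 and 10.1 CPM at ZT20. All 3 ZT8 libraries exceeded the other 15, and the ZT4 libraries overlapped with both dark time points. The mid-dark change was −0.47 (SE 0.13, adjusted p = 0.0183), 1.39-fold lower, and it rested on ZT8: without the 3 ZT8 libraries it was −0.11 (adjusted p = 0.763).

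Arc, at chr15:74669081-74672570, ran the other way, low from ZT4 to ZT12 and higher on average at ZT16, ZT20 and ZT0. It read 11.5, 8.15 and 7.07 CPM at ZT0, 5.13, 4.50 and 4.57 CPM at ZT4, 6.06, 3.61 and 5.16 CPM at ZT8, 4.91, 4.90 and 6.47 CPM at ZT12, 8.37, 9.32 and 6.59 CPM at ZT16, and 7.23, 9.15 and 5.33 CPM at ZT20. Here 5 of 6 mid-dark libraries lay above every mid-light library, with replicate 3 of ZT20 overlapping. The change was 0.67 (SE 0.18, adjusted p = 0.0174), 1.59-fold higher in mid-dark and the largest of the 10 in size. These levels rested on 29 to 188 counts per library.

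Jun, at chr4:95049036-95052222 and with 1 exon, was likewise higher in mid-dark. Its libraries read 150, 152 and 129 CPM at ZT0, 123, 97.0 and 153 CPM at ZT4, 156, 111 and 114 CPM at ZT8, 163, 160.2 and 169 CPM at ZT12, 199, 165 and 140.1 CPM at ZT16, and 163, 148 and 145 CPM at ZT20. Of the mid-dark libraries 3 lay above every mid-light one, and the other 3 overlapped with them. The change was 0.35 (SE 0.11, adjusted p = 0.0324), 1.27-fold higher. Jun and Jund, which both serve as partners of Fos proteins, had changes of opposite sign in this contrast. Library by library this was not resolved: over the 18 immunoprecipitates Pearson's r was −0.29 (permutation p = 0.25, adjusted 0.45), and within time points it was 0.17.

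**Figure D3:**
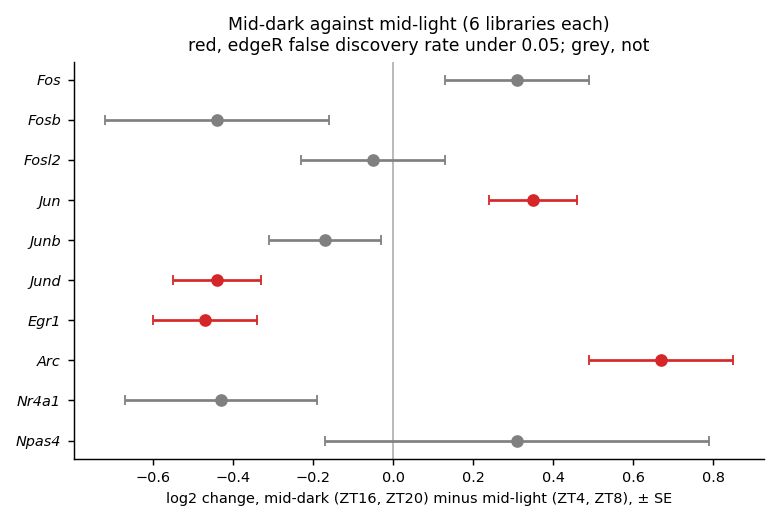
Log2 change from mid-light (ZT4, ZT8) to mid-dark (ZT16, ZT20) with its SE (x axis) for each gene (y axis), 6 libraries in each phase, in red where edgeR's adjusted p was under 0.05. Jun and Arc are red to the right of 0, Jund and Egr1 red to the left, and the other 6 genes are grey.

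The other 6 genes did not pass the test. Fos, at chr12:85473890-85477274, read a median of 17.5 CPM in mid-light (13.5 to 34.4) and 26.7 CPM in mid-dark (18.0 to 35.6), a log2 change of 0.31 (SE 0.18, adjusted p = 0.258). Nr4a1, at chr15:101253902-101274795, read a median of 5.05 CPM in mid-light (2.68 to 12.6) and 4.24 CPM in mid-dark (2.96 to 5.98), a change of −0.43 (SE 0.24, adjusted p = 0.222). Fosb (chr7:19302696-19310118) gave −0.44 (SE 0.28) and Npas4 (chr19:4984353-5003439) 0.31 (SE 0.48), the widest errors of the set. Junb (chr8:84976909-84978748) gave −0.17 (SE 0.14) and Fosl2 (chr5:32136472-32157840) −0.05 (SE 0.18).

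Markers of cholinergic neurons moved with the same contrast. Of 7 cholinergic markers, 5 were higher in mid-dark, among them Chat, choline acetyltransferase itself, at 49.6 ± 23.7 CPM against 21.3 ± 7.94 CPM (log2 change 1.24, SE 0.31, adjusted p = 0.0109) and Slc18a3, the vesicular acetylcholine transporter, at 651 ± 147 CPM against 396 ± 112 CPM. Mnx1 (0.04, SE 0.09, edgeR adjusted p = 0.802) and Prph (−0.13, SE 0.08, 0.287) did not pass. The summed marker level ran from 4209 to 4918 CPM in mid-light and from 4623 to 5027 CPM in mid-dark. Prph, at 2954 ± 341 CPM over the 18 immunoprecipitates, made up most of that sum. With the mean marker level as a covariate, an alternative added after the data were seen, Jund stood at −0.34, Egr1 at −0.36, Jun at 0.09 and Arc at 0.09. In that fit edgeR called 0 of the 10 (1 at an unadjusted p under 0.05) and 0 of all 15572 genes. Of the other cell types, 1 of 7 oligodendrocyte markers (Mbp) and 1 of 6 astrocyte markers (Gfap) passed as higher in mid-dark, and 1 of 5 microglial markers tested (Cx3cr1) and 1 of 4 erythrocyte markers (Hbb-bt) as lower. Changes of any size were positive in 6 of 7, 4 of 6, 2 of 5 and 0 of 4, and the summed levels of all 4 lists overlapped between the phases (1516 to 2002 against 1764 to 2887 CPM for oligodendrocytes, 131 to 169.8 against 149 to 203 CPM for astrocytes, 8.34 to 11.4 against 7.7 to 9.93 CPM for microglia, 233 to 431 against 208 to 387 CPM for erythrocytes). Without the ZT8 libraries, likewise added, mid-dark was set against ZT4 alone. There edgeR called 0 of the 10 (4 at an unadjusted p under 0.05) and 1.3% of all genes. The log2 changes were then −0.37 for Jund, 0.37 for Jun, 0.7 for Arc and −0.11 for Egr1. Leaving out replicate 2 of ZT8, of ZT16 or of ZT20 singly left a call for Jund alone. Those fits called between 8.63% and 11.4% of all genes.

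Single time points were then compared in all 15 pairs, and a member was called in 2 of them, both with ZT8. Against ZT0, ZT8 was higher for Nr4a1 by 0.95 (log2, adjusted p = 0.0481), for Egr1 by 0.56 (0.0384) and for Jund by 0.53 (0.0206), and lower for Arc at −0.85 (0.0263), in a comparison that called 18.0% of all genes. From ZT8 to ZT16, Egr1 changed by −0.81 (adjusted p = 0.00894), Jund by −0.61 (0.0116) and Nr4a1 by −1.10 (0.0282), where 16.9% of all genes were called. The p-values were adjusted within each pair, and over the 15 pairs 4 of the 10 genes and 21.4% of all genes were called at least once. ZT8 and ZT20, 12 h apart, gave the largest change of Egr1 in size, −0.86 (SE 0.19, unadjusted p = 0.000161), but its adjusted p was 0.0621 in a pair in which edgeR called 0 genes (3474 at an unadjusted p under 0.05) and DESeq2 1114. Nr4a1 read 7.35, 12.6 and 5.34 CPM at ZT8 against 5.09, 2.72 and 5.13 CPM at ZT0 and 4.70, 2.96 and 4.24 CPM at ZT16. When libraries were left out, the change of Nr4a1 from ZT0 to ZT8 ran from 0.3 to 1.33 and lost its call in 17 of 21 fits, keeping it only without replicate 3 of ZT4, replicate 1 or 3 of ZT8 or replicate 2 of ZT16. That of Egr1 lost its call in 9 of 21 fits, and those of Jund and Arc in 6 each, while from ZT8 to ZT16 Nr4a1 lost it in 5 (−1.40 to −0.50), Jund in 4 and Egr1 in 3. For Nr4a1, replicate 2 of ZT8 was the highest of all 18 libraries, and without that library no gene of the 10 was called in any pair. The share of all genes called in any pair of that fit is not given here. Between mid-dark and mid-light that fit called 9.27% of all genes, against 18.2% with all 18 libraries.

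Rhythms over the day were asked with 3 tests. JTK_Cycle, the rank test of periodicity that the study used (periods of 20, 24 and 28 h), called 0 of the 10 genes and 0.0385% of all genes at an adjusted p under 0.05. Each p-value was first multiplied by 18, the number of curves tried per gene, and then adjusted over all genes. With its own JTK_Cycle run at the same threshold, the study reported a far larger share of genes as oscillating. The reason for this difference was not tested. By the JTK_Cycle p-value within the gene alone, Jund, Egr1 and Arc were under 0.05, as were 15.8% of all genes. A cosine curve of 24 h fitted in edgeR called Jund (amplitude 0.27 log2, peak 7.49 h after lights-on, adjusted p = 0.0434) and Egr1 (amplitude 0.36, peak at 8.38 h, 0.0434), 2 of 10 against 6.24% of all genes. Arc had the widest amplitude, 0.44 with a peak at 20 h, and its adjusted p of 0.050016 just missed the threshold. Jun did not pass either (amplitude 0.22, peak at 16.3 h, 0.0663). Any difference among the 6 time points was called for Egr1 (adjusted p = 0.0295), 1 of 10 against 6.74% of all genes, and Jund followed at 0.0503. The same test called 4 of 4 erythrocyte markers, whose summed level averaged 675 CPM at ZT12 and 268 CPM at ZT0, and the cosine curve called 2 of them, and their part in these results was not tested.

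Unadjusted p-values were under 0.05 for 5 of the 10 genes by the cosine fit, beside 26.7% of all genes, and for 6 by the time point test, beside 23.7%. Both cosine calls held without replicate 1 of ZT4 or replicate 3 of ZT12, ZT16 or ZT20, and at least 1 was lost without any 1 of the other 14 libraries. Egr1 kept its time point call in 10 of 18 such fits. Fos, the gene most often taken as the readout of neuronal activity, had an amplitude of 0.17 and an adjusted p of 0.63, and its time point test gave 0.193.

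Whether the genes rose and fell together was asked over the 18 immunoprecipitates, with 45 pairs and 100000 permutations each (two-sided). By Pearson's r 0 of 45 pairs passed Benjamini-Hochberg adjustment, 8 had an unadjusted p under 0.05, and r ran from −0.62 to 0.67. Junb and Egr1 were closest, with r = 0.67 (permutation p = 0.0023, adjusted 0.059) and Spearman's rho of 0.74 (p = 0.00062, adjusted 0.028), the only pair to pass by rho. Without the 2 libraries farthest from the median of Junb, r was 0.73, and within time points, after their means were removed, it was also 0.73 (permutation p = 0.016, adjusted 0.24). Of all other genes tested, 0.212% were at least as highly correlated with Junb and 0.475% with Egr1.

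**Figure D4:**
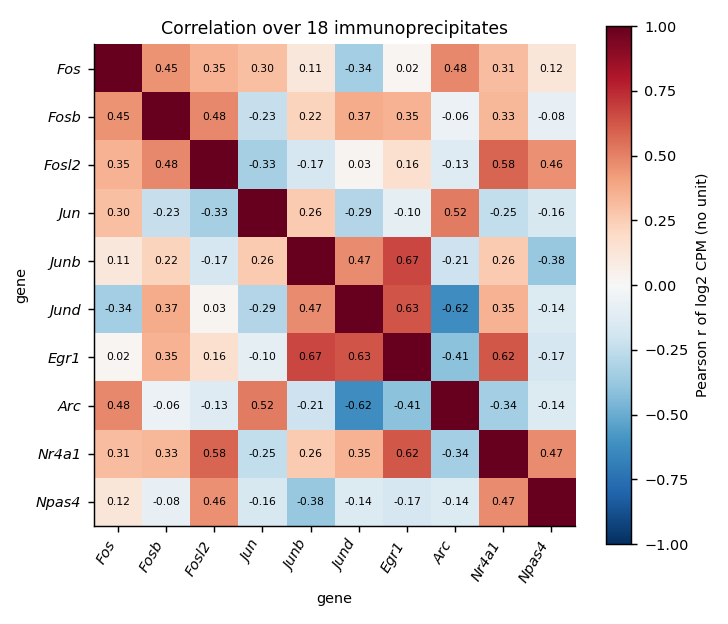
Pearson's r of log2 CPM over the 18 immunoprecipitates for every pair of the 10 genes (both axes, colour and printed value, no unit). Junb with Egr1 has the highest value, 0.67, and Jund with Arc the lowest, −0.62.

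Egr1 also ran with Jund (r = 0.63, p = 0.005, adjusted 0.059; rho 0.58, p = 0.012, adjusted 0.17) and with Nr4a1 (r = 0.62, p = 0.0046, adjusted 0.059; rho 0.57, p = 0.015, adjusted 0.17). Within time points r was 0.52 and 0.12. At least as high an r was reached with Jund by 10.3% and with Egr1 by 0.983% of genes for the first pair, and with Egr1 by 1.32% and with Nr4a1 by 0.681% for the second. Jund and Arc ran against each other (r = −0.62, p = 0.0052, adjusted 0.059; rho −0.66, p = 0.0033, adjusted 0.074), but r was −0.02 within time points, and 9.74% of genes ran at least as strongly against Jund and 12.0% against Arc. For Fosl2 and Nr4a1, r was 0.58 (p = 0.017, adjusted 0.15; rho 0.17, p = 0.49, adjusted 0.74) and became −0.13 without the 2 farthest libraries. The median size of r was 0.31 over the 45 pairs and 0.25 over pairs of every 10th gene tested, and the libraries share their scaling and depth. Leaving out replicate 2 of ZT20 raised the pairs passing by r from 0 to 4, replicate 3 of ZT4 to 2, and replicate 1 or 2 of ZT8 to 1.

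The genes whose profile over the 18 libraries was most like that of Fos were Zfp800 (r = 0.82), Cnot4 and Hspa1b (0.79 each), Prdm15 (0.77) and Spry4 (0.76). Hspa1b encodes an inducible heat shock protein and Spry4 an inhibitor of receptor tyrosine kinase signalling. Nearest to Nr4a1 were Bin3 (0.83), Ippk (0.82), Arid5b (0.80), Hadh (0.76) and Klf2 (0.76). Klf2, a Krüppel-like transcription factor, is itself on the list of further immediate early regulators. Nearest to Junb were Zdhhc7 (0.78), Top1mt (0.76), Necab3 (0.75) and Fzd4 (0.74). These genes are from the top 5 of 15571 other genes in each case and are given as a description.

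Of 19 further immediate early transcription regulators, 16 passed the filter on low counts, with 2 higher and 2 lower in mid-dark and a median log2 change of −0.33. Maff, a small MAF protein, was higher by 0.75 (SE 0.22, adjusted p = 0.0231), and Nfil3, a basic leucine zipper repressor, by 0.69 (SE 0.21, 0.029). Btg2, an antiproliferative factor, changed by −0.76 (SE 0.18, adjusted p = 0.0093), from 7.78 ± 3.29 CPM in mid-light to 4.34 ± 0.957 CPM in mid-dark (n = 6 each). Klf6, a Krüppel-like factor, changed by −0.48 (SE 0.10, 0.00679). The cosine curve called 3 of the 16, Klf6, Btg2 and Atf3, a CREB-family stress response factor, whose amplitude of 0.96 peaked at 11.4 h (adjusted p = 0.0409), and the time point test called the same 3 genes. In the contrast of the phases Atf3 gave −0.45 (adjusted p = 0.375) and Klf2 −0.55 (0.127), neither of which passed.

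Of 20 immediate early signalling and synaptic genes, 19 were tested, 2 were higher and 4 lower in mid-dark, with a median of 0.08. Dusp1, a phosphatase that inactivates MAP kinases, was higher by 0.57 (SE 0.19, adjusted p = 0.0416), and Rheb, the GTPase that activates mTORC1, by 0.33 (SE 0.08, 0.0102). Arl4d (−0.69, adjusted p = 0.00777), Ier3 (−0.67, 0.00536), Gadd45g (−0.63, 0.014) and Gadd45b (−0.36, 0.0232) were lower. Ier3 averaged 73.4 ± 12.1 CPM in mid-light and 46.5 ± 8.86 CPM in mid-dark (n = 6 each) and lay 6.43-fold above the input. The cosine curve called 5 of the 19, Ier3, Gadd45b, Gadd45g and Arl4d with peaks between 6.53 and 9.25 h and Rheb at 19.9 h, and the time point test called these without Gadd45b. The largest changes, for Dusp5 (1.17, adjusted p = 0.24) and Dusp4 (0.76, 0.233), rested on 0 to 24 and 8 to 78 counts per library and did not pass.

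The 10 delayed activity-response genes, which follow the immediate early factors, were all tested. EdgeR called 0 of them for the phases (2 at an unadjusted p under 0.05), 0 by the cosine curve (2) and 0 among the time points (0), and DESeq2 called 0, 1 and 0. Pcsk1, a prohormone convertase, was highest at 0.52 (SE 0.20, adjusted p = 0.077), followed by Bdnf, brain-derived neurotrophic factor, at 0.35 (SE 0.17, 0.162). Inhba and Nptx2 were lowest at −0.36 and −0.16. Of the upstream regulators and AP-1 partners, 21 of 22 were tested. Mef2a (0.33, SE 0.10, adjusted p = 0.0302) and the serum response factor cofactor Mrtfa (0.37, SE 0.11, 0.0233) were higher in mid-dark, and Mapk3, which encodes the kinase ERK1, (−0.28, SE 0.09, 0.0298) and Atf2 (−0.26, SE 0.08, 0.03) were lower. The CREB coactivator Crtc2 passed the time point test (adjusted p = 0.0434), the outlying values that did not pass were those of Jdp2 (0.52, 0.0657), Mef2c (−0.38, 0.218) and Atf1 (−0.33, 0.227), and the median was −0.06. Over the 4 lists 14 of 66 genes tested, 21.2%, were called between mid-dark and mid-light, beside the 18.2% of all genes.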

How the data were processed

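Male ChAT-Cre;RiboTag fx/+ mice were sampled at 6 time points with 3 animals each, and the HA-tagged ribosomes of their spinal cords were immunoprecipitated. Per the study's methods, all samples were processed on the same day and sequenced as stranded poly(A) libraries. Per the labels and methods, the authors aligned reads with STAR 2.7.5 to mm10 and deposited expected counts from RSEM, which splits reads shared between genes by a model, so that 1.9% to 3.68% of values were not whole. These expected counts were rounded to whole numbers. Library totals of 6302140 to 22406850 in the immunoprecipitates limit the precision for Npas4 and Fosb most.

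Genes kept by the edgeR filter (15572, including all 10 described) were scaled by TMM and fitted in edgeR 4.0.16 (R 4.3.3) with a quasi-likelihood test and Benjamini-Hochberg adjustment over all genes at 0.05. Fits were a mean per time point (all 6 means, 15 pairs, and ZT16 and ZT20 against ZT4 and ZT8) and a 24-h cosine curve. JTK_Cycle was computed on log2 CPM (prior count 2), after the study's choice of test but in a separate implementation. Immunoprecipitates were set against the pooled input without a test. The input was among the scaled libraries there, so CPM differ slightly from those by time point. The 19831 genes compared had at least 10 counts in all and a count in both the input and an immunoprecipitate. Genes were called there at a mean ratio of 2-fold or more with 18 of 18 libraries on 1 side. Genes of like level are those within 0.5 log2 CPM. Correlations used 100000 permutations. Gene lengths are GENCODE M21 exon unions, and gene positions and promoter windows are from RefSeq (GRCm38.p6). The deposited counts rest on Ensembl annotation, and no coordinate was used to count. Scripts were tested on simulated data.

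The 10 genes and all lists were chosen with earlier results of these data known. Named from the lists were genes past a test and the 2 highest and 2 lowest by the change between phases, and for Fos, Junb and Nr4a1 the 5 genes of highest Pearson r, of which 1 is not reported here. Alternatives were other scalings, filters, DESeq2 1.42.0, a replicate block, an oligodendrocyte score, a prior count of 0.5 and leaving out libraries. The cholinergic score and leaving out ZT8 were added after the data were seen.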

Additional observations from a re-analysis of the deposited data

How the results depend on the processing

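The 4 calls between mid-dark and mid-light were the same genes under DESeq2 size factors, library totals, upper-quartile scaling, both other filters, the replicate block, the oligodendrocyte score and DESeq2. With the cholinergic score the calls were 0 for the phases, 0 for the cosine curve, 0 among the time points and 0 in any pair, and without the ZT8 libraries they were 0, 0, 0 and 1 (Fos). In these fits the cosine curve called 0.0578% and 0.0131% of all genes and the time point test 0.0771% and 0.0917%. Both were chosen after seeing the data, and the causes were not tested. For these fits and those that leave out libraries, the share of all genes called in any pair is not given here. Leaving out libraries gave 0 to 4 calls for the phases (0 without replicate 2 of every time point, when edgeR called 0 of all genes), 0 to 4 for the cosine curve, 0 to 4 among the time points, 0 to 6 in any pair and 0 to 4 correlated pairs. It gave 0 to 0 for JTK_Cycle and 5 to 6 against the input. For the phases, 8 of 18 libraries each cost at least 1 of the 4 calls: replicate 1 of ZT4, ZT16 and ZT20, replicate 2 of ZT4, ZT8, ZT16 and ZT20, and replicate 3 of ZT8. The time point call of Egr1 was lost without 8 of 18: replicates 1 and 3 of ZT0, replicate 2 of ZT4, replicates 2 and 3 of ZT8, replicates 1 and 2 of ZT16 and replicate 2 of ZT20. At least 1 gene lost its call in any pair without replicate 1 of ZT0, replicates 2 and 3 of ZT8 and replicate 1 of ZT16. The cosine curve called 4 genes with no filter beyond 1 count (9.18% of all genes), 4 with DESeq2 (14.4%) and 0 with the oligodendrocyte score (0.0257%). The time point test called 2 with library totals (6.49% of all genes), 2 with a filter of 10 counts (6.64%), 6 with no filter beyond 1 count (10.8%) and 4 with DESeq2 (16.1%). JTK_Cycle called 3 by adjustment within the gene alone. The direction of the uncalled mid-dark change of Fosl2 reversed with the oligodendrocyte score (0.01), the cholinergic score (0.28) and without ZT8 (0.18), and ran from −0.25 to 0.19 when libraries were left out. Nr4a1 reversed without ZT8 (0.11), Dusp4 (−0.05) and Nptx2 (0.01) with the cholinergic score, and Junb (−0.4 to 0.05), Npas4 (−0.1 to 0.73) and Nptx2 (−0.3 to 0.05) when libraries were left out.

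Replicate numbers recur at every time point, but no source used here says that they mark a shared litter or day. The deviations of same-numbered libraries correlated between −0.151 and 0.176 over 45 pairs (median −0.00416, 4 over 0.1), so the numbers were not taken as pairing. With the replicate block the phases kept 4 calls, the cosine curve called 0 and 4.97% of all genes (adjusted p = 0.0508 for both Jund and Egr1) and 1 correlated pair passed (Jund with Arc). Replicates differed beyond sampling noise in all 18 pairs within a time point.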
